A study of Mus musculus and Homo sapiens with 20 samples.

Results

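The LIM homeobox family was followed here through 10 mouse genes, chosen by name: Lhx1, Lhx2, Lhx3, Lhx4, Lhx5, Lhx6, Lhx8, Lhx9, Isl1 and Isl2. They are 10 of 21911 protein-coding genes in the mouse annotation, and their 10 human orthologues, matched by symbol, are among 20007. The lists of called peaks came from CUT&Tag, where an antibody brings a transposase to one histone mark and the DNA beside it is cut and tagged. H2AK119ub (ubiquitin on histone H2A, placed by Polycomb repressive complex PRC1) and H3K27me3 (placed by its partner PRC2) were mapped in 2 mouse cell types, embryonic stem cells (mES) and haematopoietic stem and progenitor cells (HSPCs). Both cell types were wild type (WT) or Tet2 knockout (KO), and K562 cells, a human leukaemia line, gave H2AK119ub after a control siRNA (siControl) or one against MBD6 (siMBD6). There were 10 groups of 2 libraries. The mES cells were kept with LIF and inhibitors CHIR99021 and PD0325901 and were grown off their feeders. The HSPCs were lineage-depleted, c-Kit+ marrow cells of WT or Tet2-/- mice 6 to 8 weeks old, so they are a mixture of progenitors and not one cell type. The study's methods speak of biological replicates for CUT&Tag, and no source used here says which cultures or animals the libraries of a group came from.

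LIM homeobox genes encode transcription factors that join a DNA-binding homeodomain to LIM domains, zinc-binding folds that hold cofactors such as LDB1. Neighbouring combinations of these factors set the identity of motor neurons, interneurons and other neurons, and single members direct the pituitary, gonad, eye, kidney and heart. Developmental transcription factor genes of this kind are known Polycomb targets, covered by broad H3K27me3 and H2AK119ub in cells that do not use them. The 10 genes form 5 pairs of close relatives, and the results are ordered by these pairs.

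Promoter sequence is shown for Lhx2 and Lhx9, where a window had no H2AK119ub peak in some libraries and H3K27me3 in all. Isl1 and Lhx1 are shown as CpG-rich windows and Lhx8 as the least CpG-rich one, for comparison. The windows, from RefSeq on GRCm38.p6, run from 250 bases before to 50 after a start, 5′ to 3′ on the gene's strand. The Lhx9 window lies near its principal transcript start, 6120 bp downstream of the start used for its domains below. Capitals mark the dinucleotide CG (CpG), read on either strand alike.
Isl1 (chr13:116309639-116309938, minus strand): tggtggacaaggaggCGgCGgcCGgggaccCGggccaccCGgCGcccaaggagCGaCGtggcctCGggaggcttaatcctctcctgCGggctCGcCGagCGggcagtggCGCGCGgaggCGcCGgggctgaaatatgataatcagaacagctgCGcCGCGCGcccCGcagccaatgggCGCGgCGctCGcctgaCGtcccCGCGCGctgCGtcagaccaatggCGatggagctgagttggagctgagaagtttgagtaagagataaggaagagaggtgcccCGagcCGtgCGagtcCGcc
Lhx1 (chr11:84525485-84525784, minus strand): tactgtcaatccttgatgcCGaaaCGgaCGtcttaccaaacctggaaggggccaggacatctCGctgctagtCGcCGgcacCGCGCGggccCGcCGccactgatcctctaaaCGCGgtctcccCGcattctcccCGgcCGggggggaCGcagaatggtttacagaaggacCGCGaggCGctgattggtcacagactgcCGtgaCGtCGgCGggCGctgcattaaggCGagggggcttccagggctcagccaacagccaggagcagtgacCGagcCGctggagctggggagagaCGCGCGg
Lhx2, first start (chr2:38339031-38339330, plus strand): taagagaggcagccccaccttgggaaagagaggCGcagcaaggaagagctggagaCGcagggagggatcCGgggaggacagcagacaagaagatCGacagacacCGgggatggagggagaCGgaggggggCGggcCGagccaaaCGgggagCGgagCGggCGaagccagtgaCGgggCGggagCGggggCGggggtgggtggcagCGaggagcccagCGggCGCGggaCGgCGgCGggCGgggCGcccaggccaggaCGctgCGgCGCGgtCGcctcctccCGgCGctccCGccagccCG
Lhx2, second start (chr2:38351058-38351357, plus strand): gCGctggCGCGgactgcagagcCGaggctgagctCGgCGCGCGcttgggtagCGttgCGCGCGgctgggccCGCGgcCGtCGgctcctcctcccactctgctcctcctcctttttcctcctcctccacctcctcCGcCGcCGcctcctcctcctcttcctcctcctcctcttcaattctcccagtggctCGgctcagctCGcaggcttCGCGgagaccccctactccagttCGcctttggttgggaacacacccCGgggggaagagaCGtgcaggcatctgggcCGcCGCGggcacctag
Lhx9 (chr1:138842395-138842694, minus strand): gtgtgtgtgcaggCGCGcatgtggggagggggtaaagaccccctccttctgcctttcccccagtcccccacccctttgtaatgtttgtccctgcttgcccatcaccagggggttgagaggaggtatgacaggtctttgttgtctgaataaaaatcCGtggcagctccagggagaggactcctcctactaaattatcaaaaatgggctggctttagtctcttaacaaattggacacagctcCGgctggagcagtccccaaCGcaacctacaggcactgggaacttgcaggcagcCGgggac
Lhx8 (chr3:154330511-154330810, minus strand): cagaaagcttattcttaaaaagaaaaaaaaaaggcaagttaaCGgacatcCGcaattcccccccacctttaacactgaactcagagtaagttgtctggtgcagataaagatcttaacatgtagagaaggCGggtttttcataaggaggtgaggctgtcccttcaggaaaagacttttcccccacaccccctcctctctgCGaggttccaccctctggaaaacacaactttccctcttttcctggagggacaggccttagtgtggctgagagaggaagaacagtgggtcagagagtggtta

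The Isl1 window held 37 CpGs, Lhx1 31, the Lhx2 windows 34 and 29, Lhx9 6 and Lhx8 4. Windows of the same length matched for 9 of the 10 members, 13 windows in all, and the median over all 32851 promoter windows was 7 CpGs. As many as the 37 of Isl1 stood in 5.58% of all windows, and as many as the 4 of Lhx8 in 68.6%. CpG content therefore differed widely within the family. Counted over 1 kb on each side of the starts used for the domains, the order was another. There Lhx1 had 135 CpGs, Isl1 116, Lhx8 74, Isl2 24 and Lhx4 20, and the median of all genes was 61. All 13 windows nevertheless lay wholly under an H3K27me3 peak in all 8 libraries of that mark. The share of all promoter windows covered in this way was not computed. For H2AK119ub the first Lhx2 window was under a peak in 1 of 4 HSPC libraries and the second in 4 of 4, and the Lhx9 window in 2 of 4 mES libraries and 4 of 4 HSPC libraries.

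The lists ran from 85098 to 167326 peaks, all counted on assembled chromosomes, covering 132.1 to 259.9 Mb, with no read count, so depth is unknown and an absent peak is not an absent mark. Between 30.4% and 41.4% of peaks per list had the same width, 501 bp. The methods name MACS2 and the processing notes HOMER, so which caller made the lists, and whether it fixed that width, is not settled. Domain widths and coverage rest on these calls. Replicate 2 of HSPC WT H2AK119ub had the shortest H2AK119ub list of the mouse samples (112706 peaks, 138.8 Mb, against 171.2 Mb in replicate 1). Replicate 2 of mES KO H3K27me3 covered the least of that mark in mES cells (149.4 Mb). Counts and overlap shares are also given without these libraries where they moved. For counts of members, the shares of all genes are those of the main setting with all libraries. Groups separate more easily with fewer libraries on a side. The cell labels were checked against marks at defining genes. Of 6 mES markers, Nanog, Pou5f1 and Tdgf1 had no H3K27me3 at the start in any mES library, Esrrb had it in every one, and 5 had it in every HSPC library, where Zfp42 had none. Summed promoter coverage of 6 HSPC markers by H3K27me3 was 341 to 377 percentage points in mES and 175 to 233 in HSPC libraries, and by H2AK119ub it was 350 to 366 in mES and 393 to 430 in HSPC libraries. In K562 cells HBG1, a fetal globin gene, had no H2AK119ub peak at its start in any library. Neither mark shows a deletion or a transcript, so the lists do not check Tet2 or MBD6 themselves. Among 5 genes of lymphocytes, monocytes and fibroblasts, 4 had H3K27me3 at the start in every mES library and 3 in every HSPC library.

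Every one of the 10 genes had both marks at its start in all 16 mouse libraries. A peak within 1 kb of the start in all 4 libraries was called for 10 of 10 members in each set, against 59.3% of all genes for H2AK119ub and 33.5% for H3K27me3 in mES cells, and 59% and 49.6% in HSPCs. Their domains were broad as well. A domain here means the peaks within 1 kb of the start, joined across gaps of up to 1 kb, and its width is in kb. The median H3K27me3 domain of the 10 genes was 21.4 to 28.9 kb in the 4 mES libraries and 36.5 to 40.3 kb in the 4 HSPC libraries, where the median over all genes with a domain was 3.58 to 4.63 kb and 1.54 to 1.77 kb. In all 4 HSPC libraries the 10 members stood in the widest 10% of H3K27me3 domains, and in mES libraries 6 to 8 did. H2AK119ub was narrower, with a median of 12.1 to 15.7 kb in mES and 7.29 to 15.6 kb in HSPC libraries, and 3 to 4 and 1 to 7 members in the widest 10%.

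**Figure D1:**
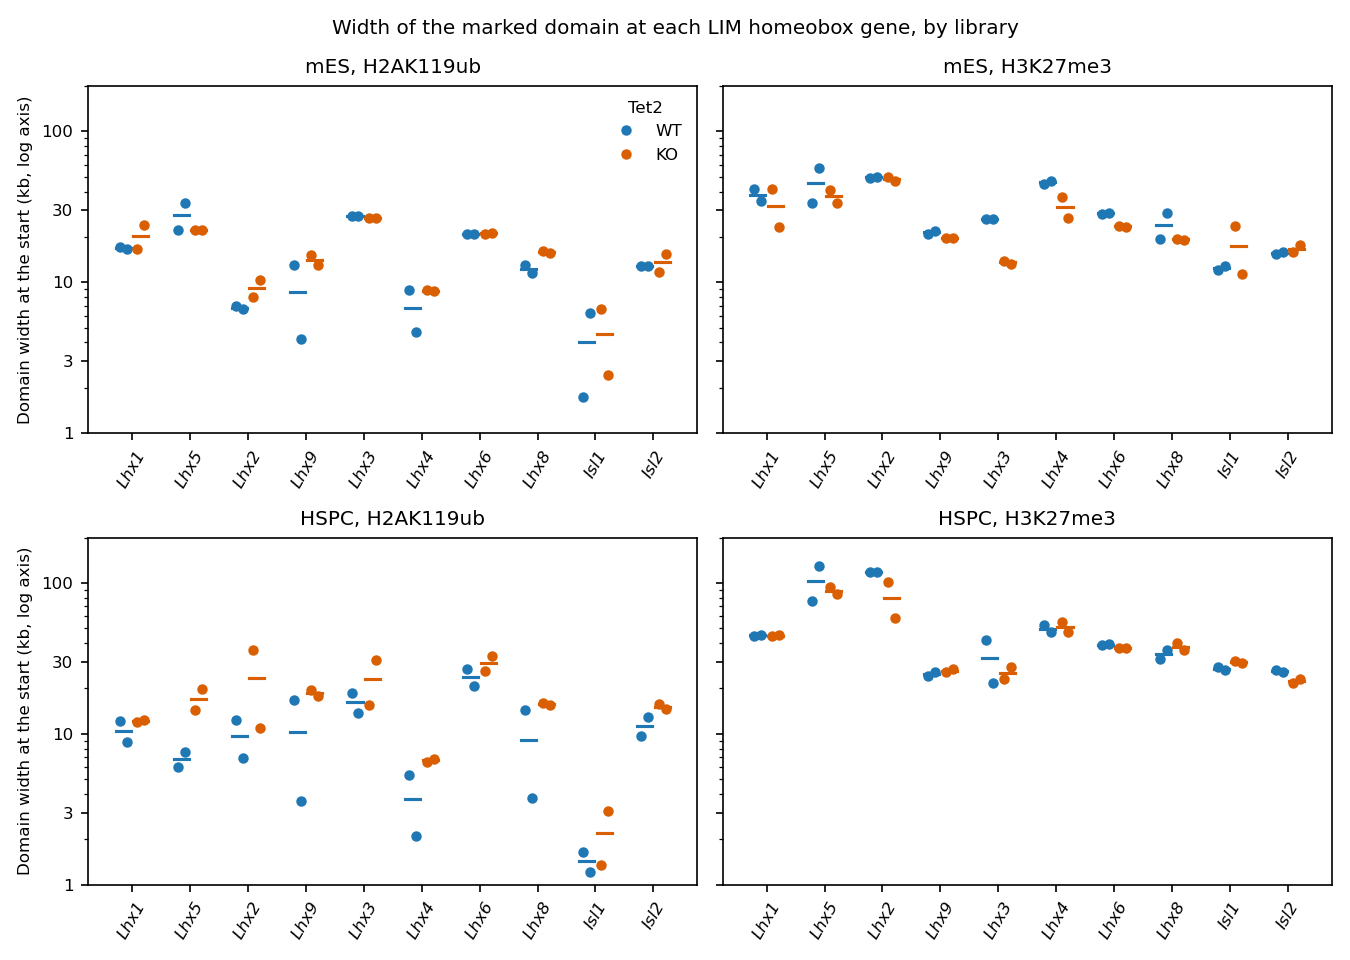
Domain width in kb on a log axis for each gene (points, 1 per library; short lines, mean of 2), with Tet2 WT in blue and KO in orange, by cell type and mark. H3K27me3 domains in HSPCs lie between 21.6 and 130.4 kb, while Isl1 has the narrowest H2AK119ub domains, at 1.22 to 6.68 kb.

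**Figure D2:**
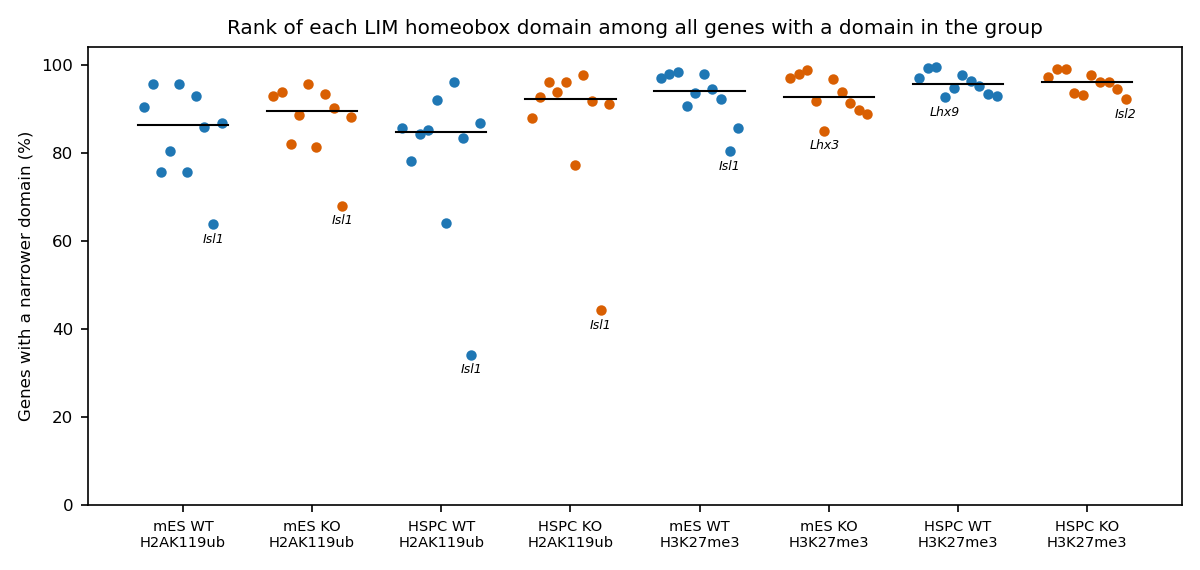
Percent of all genes with a domain in the group whose mean domain was narrower than that of each member (points in the order of the text; line, median of 10; lowest member named). In HSPCs all members exceeded at least 92.1% of genes for H3K27me3, whereas Isl1 exceeded 34.1% and 44.3% for H2AK119ub.

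Lhx1 (mm10 chr11:84518284-84525535) acts in head and kidney formation and Lhx5 (chr5:120431699-120441223) in the forebrain and hippocampus. H3K27me3 at Lhx1 spanned 41.5 and 34.7 kb in WT mES cells, 41.4 and 23.1 kb in KO mES cells, 44.8 and 44.9 kb in WT HSPCs and 44.5 and 44.9 kb in KO HSPCs. The downstream edge lay 12.2 to 12.6 kb from the start in all 8 libraries, and in HSPCs the upstream edge lay 32.1 to 32.6 kb away. H2AK119ub at Lhx1 measured 17.2, 16.7, 16.8 and 23.9 kb in mES cells (WT then KO) and 12.1, 8.90, 12.0 and 12.4 kb in HSPCs. The 23.9-kb domain, of KO replicate 2, ended 12.3 kb downstream, at the H3K27me3 edge. At Lhx5, H3K27me3 measured 33.5, 57.1, 41.0 and 33.5 kb in mES cells and 76.3, 130.4, 93.9 and 84.2 kb in HSPCs. Its upstream edge in mES cells lay 24.0 to 24.2 kb from the start in every library, and in HSPCs 45.9 to 97.5 kb. The H2AK119ub domain of Lhx5 measured 22.4, 33.4, 22.1 and 22.3 kb in mES cells and 6.04, 7.62, 14.4 and 19.7 kb in HSPCs. Lhx5 was the member in which all 4 sets stood apart, in the order HSPC H2AK119ub, mES H2AK119ub, mES H3K27me3 and HSPC H3K27me3. In Lhx1 the order was the same but the middle sets overlapped.

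Lhx2 (chr2:38339281-38369733), needed for the eye and the cerebral cortex, and Lhx9 (chr1:138825186-138848577), needed for the gonad, contrasted strongly in H3K27me3. Lhx2 had 49.4, 49.9, 49.5 and 47.0 kb in mES cells and 118, 118, 101 and 58.3 kb in HSPCs. Both WT HSPC libraries reached 29.6 kb upstream of the Lhx2 start and both KO libraries 8.49 and 8.35 kb. H2AK119ub at Lhx2 measured only 6.95, 6.65, 8.00 and 10.4 kb in mES cells and 12.3, 6.95, 35.8 and 10.9 kb in HSPCs. These widths concern the first start. Over the gene span H2AK119ub still covered 82.1% to 86.2% in mES cells, since further peaks lay beyond a gap. Lhx9 had H3K27me3 of 21, 21.9, 19.8 and 19.7 kb in mES cells and 24.2, 25.8, 25.7 and 26.8 kb in HSPCs. Its H2AK119ub domain was 13.1, 4.21, 15.1 and 13.1 kb in mES cells and 16.9, 3.6, 19.7 and 17.9 kb in HSPCs. The short value of each cell type was replicate 2 of WT. Lhx9 was the member whose H2AK119ub span coverage was higher in HSPCs (57.7% to 62.8%) than in mES cells (35% to 51.6%) without overlap.

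Lhx3 (chr2:26200212-26208289) and Lhx4 (chr1:155698031-155751684) act together in the pituitary and in motor neurons. Lhx3 was the member with H2AK119ub wider than H3K27me3 in mES cells: 27.5, 27.5, 26.7 and 26.7 kb against 26.4, 26.5, 13.8 and 13.3 kb. Its span was wholly covered by both marks in all 16 libraries. In WT mES cells both marks ended 25.9 to 26.0 kb downstream of the start, and in KO mES cells H3K27me3 ended at 13.2 and 12.9 kb while H2AK119ub ended at 26.2 and 26.0 kb. In HSPCs Lhx3 had 18.7, 13.8, 15.5 and 31.0 kb of H2AK119ub and 41.9, 21.6, 23 and 27.9 kb of H3K27me3, and these overlapped. Lhx4 showed the opposite balance. Its H3K27me3 measured 45.1, 46.8, 36.9 and 26.7 kb in mES cells and 52.3, 47.2, 55.1 and 47.0 kb in HSPCs, running almost entirely into the gene. H2AK119ub at Lhx4 measured 8.90, 4.67, 8.88 and 8.74 kb in mES cells and 5.32, 2.09, 6.50 and 6.86 kb in HSPCs. The principal transcript of Lhx4 starts 9657 bp downstream of the start used here.

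Lhx6 (chr2:36081953-36105408) marks interneurons born in the medial ganglionic eminence, and Lhx8 (chr3:154306294-154330659) acts in cholinergic neurons and oocytes. Lhx6 had the steadiest H2AK119ub domain of the family in mES cells, at 20.9, 21, 21 and 21.3 kb, and 27, 20.8, 26.2 and 32.9 kb in HSPCs. Its H3K27me3 measured 28.3, 28.9, 23.7 and 23.4 kb in mES cells and 38.6, 39.1, 37.0 and 37.3 kb in HSPCs. Edges recurred between marks and cells. The downstream edge of Lhx6 fell at 16.1 to 16.5 kb in all 4 mES H2AK119ub libraries, both KO mES H3K27me3 libraries and 1 HSPC H2AK119ub library, and at 21.5 to 21.6 kb in both WT mES H3K27me3 and 2 HSPC H2AK119ub libraries. Lhx8 had H2AK119ub of 12.9, 11.5, 16.3 and 15.6 kb in mES cells and 14.5, 3.78, 16.1 and 15.5 kb in HSPCs. H3K27me3 at Lhx8 measured 19.3, 28.9, 19.5 and 19.2 kb in mES cells and 31.5, 35.7, 39.8 and 35.7 kb in HSPCs. Lhx8 was the member least covered along its span by H2AK119ub in 7 of 8 libraries, with 30.8% to 42.9% in the mES libraries and 22.9% to 37.0% in the HSPC libraries, the exception being Isl1 at 15.7% in HSPC WT replicate 2.

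Isl1 (chr13:116298281-116309689) and Isl2 (chr9:55538672-55546180) act in motor neurons, and Isl1 also in the heart and pancreatic islets. Isl1 had the narrowest H2AK119ub domain of the 10 genes in 7 of 8 libraries of that mark, the exception being mES WT replicate 2, where Lhx9 was narrower. Its values were 1.73, 6.30, 6.68 and 2.44 kb in mES cells and 1.66, 1.22, 1.36 and 3.07 kb in HSPCs. The Isl1 promoter window was the most CpG-rich of those shown above. H3K27me3 at Isl1 measured 12.2, 12.8, 23.5 and 11.4 kb in mES cells and 27.6, 26.4, 30.4 and 29.4 kb in HSPCs, where it covered the whole span in all 4 libraries. On the log2 scale Isl1 was the member in which the marks differed most in HSPCs. Isl2 varied less, with H2AK119ub of 12.9, 12.8, 11.7 and 15.4 kb in mES cells and 9.72, 12.9, 15.7 and 14.6 kb in HSPCs. H3K27me3 at Isl2 measured 15.5, 15.9, 15.8 and 17.6 kb in mES cells and 26.4, 25.8, 21.8 and 23.2 kb in HSPCs. Both marks covered the Isl2 span completely except for 90.8% under H2AK119ub in HSPC WT replicate 2.

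**Figure D3:**
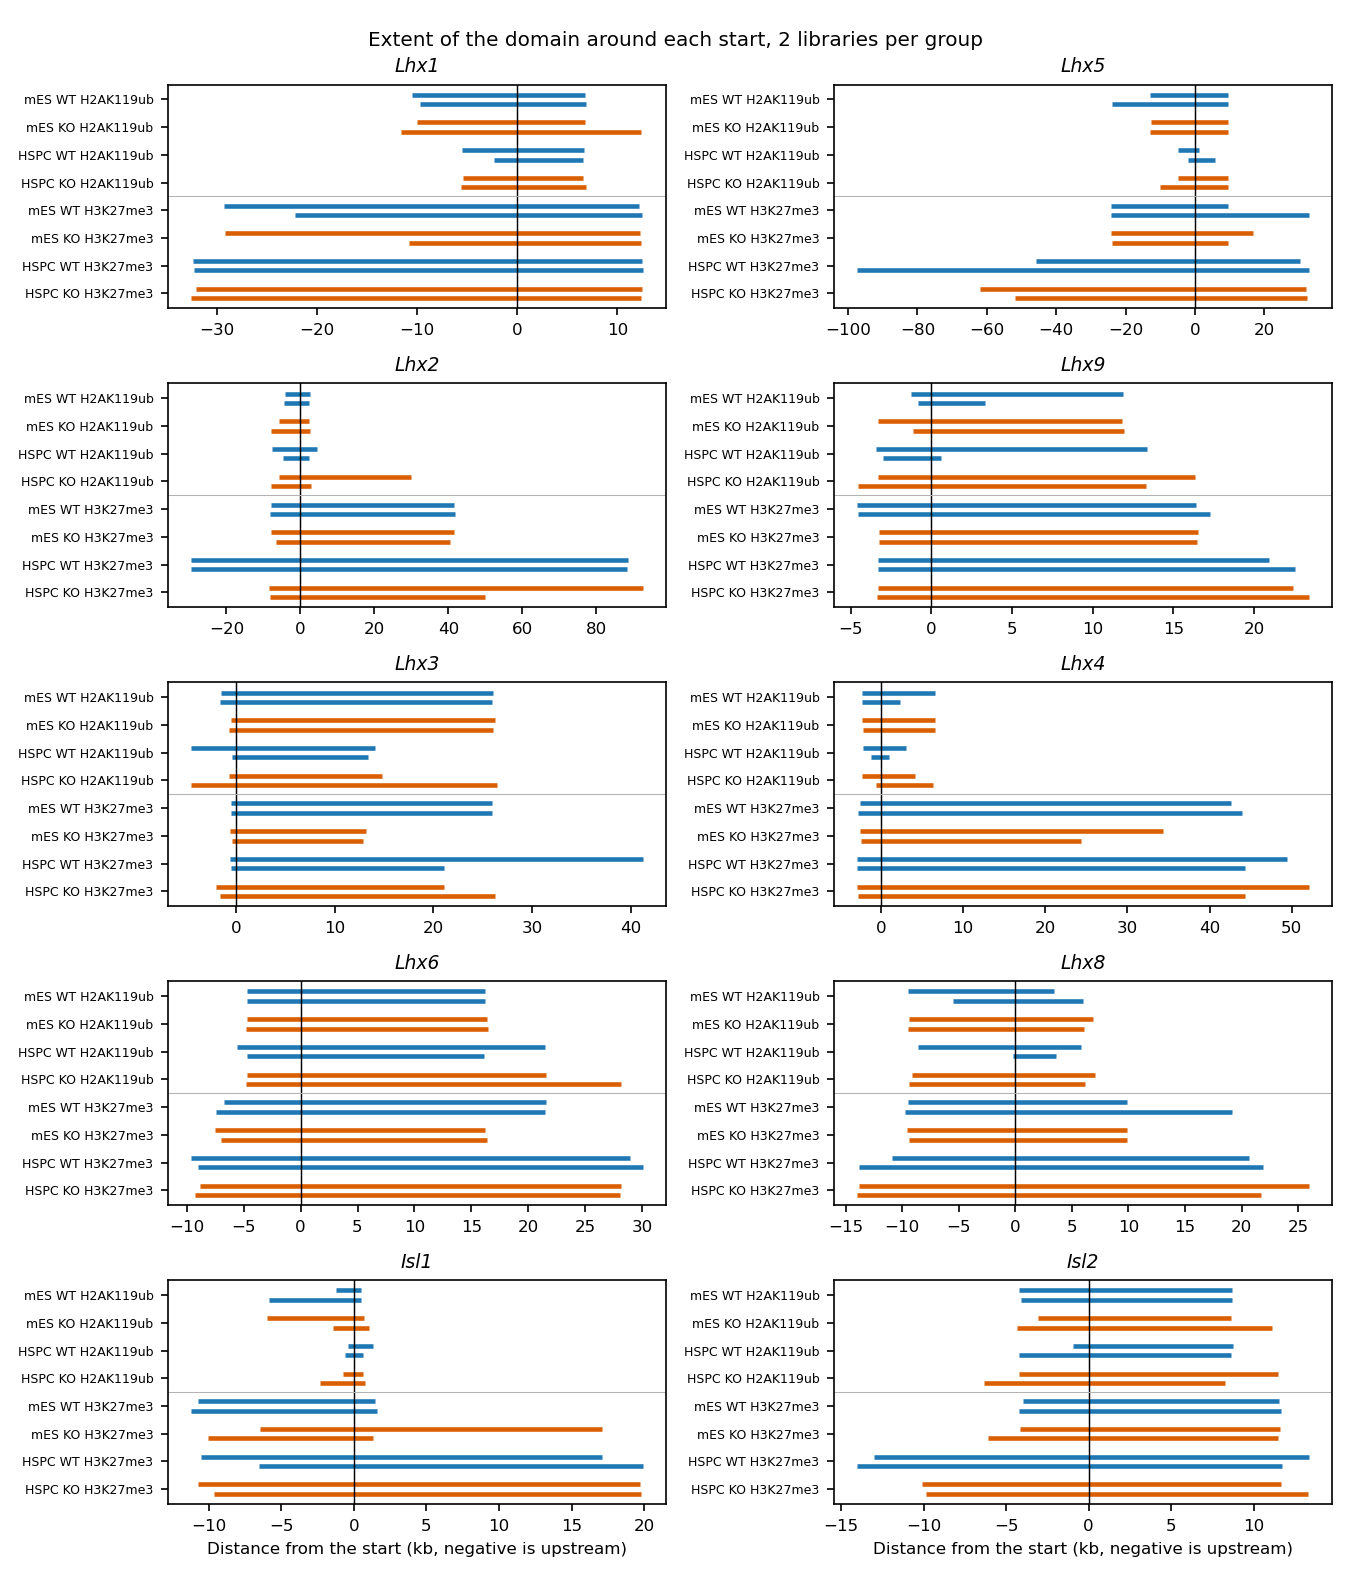
Extent of the domain around each start in kb (0 is the start, negative is upstream), 1 bar per library, WT in blue and KO in orange, H2AK119ub above and H3K27me3 below the grey line. Many edges recur between libraries, such as the downstream edge of Lhx1 H3K27me3 at 12.2 to 12.6 kb, and H2AK119ub bars mostly lie inside the H3K27me3 bars.

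The 2 marks were then compared within each cell type. Here, and between cell types below, each side held 4 libraries, WT and KO together. The SDs therefore include any difference between genotypes, and the permutation test treats the 4 as alike. H2AK119ub domains were narrower than H3K27me3 domains at 8 of 10 members in mES cells, where 12.9% of all genes had such a difference without overlap, and wider at 1, Lhx3, where 37.7% of all genes did. Lhx1 overlapped. In HSPCs H2AK119ub was narrower at 9 of 10 members, against 18.7% of all genes, and wider at 0, against 36.6%; Lhx3 overlapped. The median change of the members was -0.75 on the log2 scale in mES cells and -1.67 in HSPCs, computed on width plus 1 kb, while that of all genes was 0.44 and 0.43. The family thus went against the direction of the typical gene in both cell types. The largest differences on that scale were Isl1 in HSPCs (1.83 ± 0.849 kb against 28.5 ± 1.78 kb, SD, n = 4) and Lhx2 in mES cells (7.99 ± 1.69 against 49.0 ± 1.29 kb). For each member that separated, the exact two-sided permutation test over 70 assignments gave p = 0.0286, the smallest it allows, and adjusted p = 0.0565 in mES cells and 0.0517 in HSPCs over all genes, short of 0.05. Along the gene span H2AK119ub covered less at 5 members in mES cells (9.27% of all genes) and at 8 in HSPCs (15.8%). For span coverage in HSPCs the same permutation test gave adjusted p = 0.0446 for those 8, led by Isl1, whose H2AK119ub coverage was 38.4% ± 17.7 against 100% (n = 4). Over all genes 11873 of 18513 passed at that level. With peaks joined across 3 kb the mES count of narrower domains was 3, and Lhx5 and Lhx6 turned to wider, their libraries overlapping. The mES count of wider domains ran from 0 to 1 across the alternatives and left-out libraries. At Lhx3 the lowest H2AK119ub width, 26.7 kb, was close to the highest H3K27me3 width, 26.5 kb. Without mES KO H3K27me3 replicate 2 it was 9, with 6 for span coverage. The marks were read with different antibodies and their lists differ in length, and the part of this in the differences was not tested.

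Where the marks met was read base by base within 25 kb of each start, using bases called in both libraries of a group. Over the 10 genes together, 95.9% of H2AK119ub bases in WT mES cells also lay under H3K27me3, against 55.4% over the whole genome, and 95.1% in WT HSPCs, against 37.9%. In KO cells the shares were 90.5% in mES cells and 96.3% in HSPCs, against 45.4% and 39.9%. In WT HSPCs the H2AK119ub bases of Lhx5, Lhx2, Lhx6, Lhx8, Isl1 and Isl2 were all under H3K27me3. Lhx3 had the lowest share, 81.4% in WT and 65.3% in KO mES cells and 75.0% and 75.2% in HSPCs. The reverse share was smaller. Of the H3K27me3 bases, 69.5% lay under H2AK119ub in WT and 77% in KO mES cells, against 63.8% and 65.1% over the whole genome. In HSPCs it was 42.0% in WT and 55.8% in KO, against 27.3% and 29.6%. Isl1 had 11.2% and Lhx8 19.1% in WT HSPCs, and 34.2% and 35.4% in KO HSPCs. Bases of the remaining library, read without HSPC WT H2AK119ub replicate 2, gave 57.3% for WT HSPCs (whole genome 42.0%) and 27.5% at Isl1. Without mES KO H3K27me3 replicate 2 the KO mES share was 71.4% (whole genome 51.9%). From 1 H2AK119ub library at a time, replicate 2 and then replicate 1, WT HSPCs gave 48.9% and 57.3% (whole genome 33.2% and 42.0%). KO HSPCs read in the same way gave 68.1% and 62.6% (whole genome 39.1% and 37.6%). The size of the difference between genotypes in HSPCs therefore moved with the libraries used, with KO the higher on like sets of bases. These shares come from 1 intersection per group, so they carry no replicate error.

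**Figure D4:**
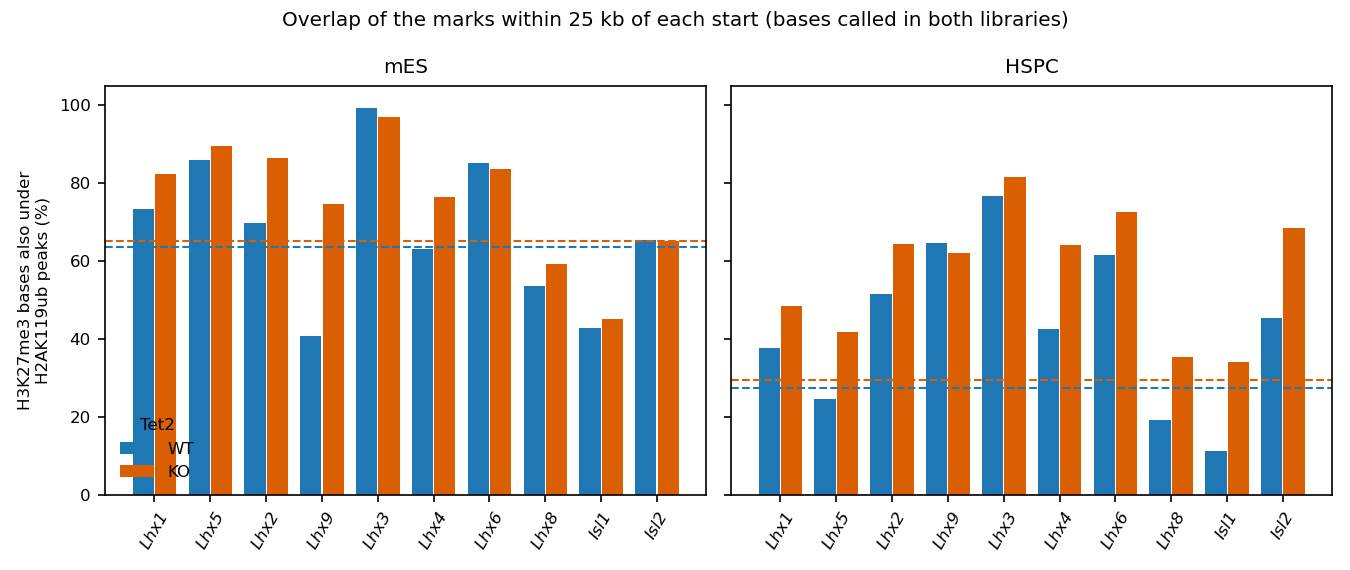
Percent of H3K27me3 bases within 25 kb of each start that also lie under H2AK119ub peaks, counting bases called in both libraries of a group (bars, 1 value per group and so no error bar; WT blue, KO orange; dashed lines, the whole genome). In HSPCs the WT bars run from 11.2% at Isl1 to 76.8% at Lhx3.

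Between cell types, H3K27me3 domains were wider in HSPCs than in mES cells at 9 of 10 members, where 34.6% of all genes were, and narrower at 0, where 16% of all genes were. Lhx3 was the member that overlapped. Of the 4 sets of libraries, H3K27me3 in HSPCs had the widest mean domain at all 10 members, set apart from the next widest set at 9. On the log2 scale the difference was largest at Lhx5 (96.2 ± 23.9 against 41.3 ± 11.1 kb, SD, n = 4) and Lhx2 (98.9 ± 28.2 against 49.0 ± 1.29 kb), followed by Isl1 (28.5 ± 1.78 against 15.0 ± 5.72 kb). It was smallest at Lhx9, 25.6 ± 1.06 against 20.6 ± 1.02 kb. The members' median change was 0.54 on the log2 scale, and that of all genes was 0.38. The exact permutation p was 0.0286 for each of the 9 and the adjusted p 0.0564 over all genes. Under peaks joined across 3 kb, 6 members were wider and Isl1 turned to -0.18 on the log2 scale. Span coverage was higher at 6 members, Lhx2, Lhx9, Lhx4, Lhx6, Lhx8 and Isl1, against 32.5% of all genes. The HSPC lists of this mark were the shorter ones, 85098 to 100807 peaks against 102348 to 125318.

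H2AK119ub did not follow the same course. Its domains were narrower in HSPCs at 2 of 10 members, Lhx1 (11.4 ± 1.65 against 18.7 ± 3.54 kb) and Lhx5 (11.9 ± 6.32 against 25 ± 5.58 kb), where 16.3% of all genes were, and wider at 0, where 22.3% were. Both gave an exact permutation p of 0.0286 with n = 4 and an adjusted p of 0.0739. The members' median change was -0.30 on the log2 scale and that of all genes 0.17. The span of Lhx4 was covered less in HSPCs, at 54.6% ± 12.2 against 68.9% ± 1.87 (24.2% of all genes were lower), and that of Lhx9 more, at 61.1% ± 2.37 against 44.2% ± 8.42 (24.6% were higher). In WT libraries alone 6 members were lower, and without KO replicate 2 of HSPC H2AK119ub 4 were. For domain width, leaving out HSPC WT replicate 2 gave 3 wider and 2 narrower members, and WT libraries alone gave 1 and 4. HSPC lists of H2AK119ub held 112706 to 136694 peaks and mES lists 154876 to 167326. In the WT libraries alone the members' median span coverage was 75.7% in HSPCs against 86.8% in mES cells, and with KO included 81.7% against 85.9%.

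The effect of Tet2 loss was compared within each cell type, 2 libraries against 2, a design whose exact permutation test cannot go below p = 0.333. In mES cells the H2AK119ub domain was wider in KO at 3 of 10 members (16.1% of all genes) and narrower at 2 (17.6%), shares near the background. Lhx2 went from 6.80 ± 0.211 to 9.19 ± 1.68 kb (SD, n = 2), Lhx8 from 12.2 ± 1.05 to 15.9 ± 0.462 kb and Lhx6 from 20.9 ± 0.0424 to 21.1 ± 0.174 kb. Lhx5 was narrower in KO, 22.2 ± 0.139 against 27.9 ± 7.79 kb, and so was Lhx3, 26.7 ± 0.0311 against 27.5 ± 0.0141 kb. Each of these 5 directions turned under at least 1 other way of joining peaks, choosing the start or setting a minimum width. Span coverage was higher at 2 members (18.4% of all genes), Lhx9 by 14.3 and Isl1 by 6.45 percentage points, and lower at 3 (19.2%), Lhx1, Lhx5 and Lhx4, with differences of -1.41, -0.34 and -3.13 points.

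H3K27me3 in mES cells was narrower in KO at 4 of 10 members, Lhx9, Lhx3, Lhx4 and Lhx6, where 41.7% of all genes were, and wider at 0, where 4.67% were. Lhx3 changed most on the log2 scale (-0.92), from 26.5 ± 0.0332 to 13.6 ± 0.380 kb (n = 2), and its downstream edge from 26.0 and 25.9 to 13.2 and 12.9 kb. Unjoined or joined across 3 kb, the direction at Lhx3 turned. Lhx4 went from 45.9 ± 1.14 to 31.8 ± 7.23 kb and Lhx6 from 28.6 ± 0.422 to 23.5 ± 0.247 kb. The span was covered less at 3 members (34.9% of all genes), Lhx4, Lhx6 and Lhx2, and more at 0 (8.71%), and without WT replicate 1 it was covered less at 7. The 2 KO lists differed in covered length (214.5 and 149.4 Mb). Without KO replicate 2 the counts were 4 narrower and 1 wider, without KO replicate 1 they were 9 and 1, and without WT replicate 1 they were 7 and 0. The 2 kb around the start were wholly covered by H3K27me3 at 9 members in all mES libraries, and at Lhx3 to 70.8% to 82.5%. Of all genes, 12.9% to 19.9% were wholly covered there in a single mES library.

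In HSPCs the H2AK119ub domain was wider in KO at 5 of 10 members, Lhx5, Lhx9, Lhx4, Lhx8 and Isl2, against 26.1% of all genes, and narrower at 0, against 10.3%. Lhx5 changed most, from 6.83 ± 1.12 to 17 ± 3.79 kb (n = 2). At Lhx9 and Lhx8 the WT mean rested on a wide spread, 10.2 ± 9.37 and 9.12 ± 7.55 kb, replicate 2 being the short one. The members' median change was 0.60 on the log2 scale and that of all genes 0.14. Span coverage was higher at 5 members (23.3% of all genes), Isl1 by 27.8, Lhx5 by 15.5, Lhx4 by 14.6, Lhx2 by 14.4 and Lhx8 by 9.96 percentage points, and lower at 0 (11.5%). Across the alternatives and left-out libraries this count ran from 4 to 9, the 9 being without WT replicate 1. The Lhx1 promoter went from 68.4% and 64.3% covered to 100% in both KO libraries. Promoter coverage was higher in KO at 2 of 10 members, against 24.8% of all genes. Its median change was 4.56 percentage points for the members and 5.52 for all genes. The count of wider domains moved with the libraries used. Without WT replicate 1 all 10 members were wider in KO, without WT replicate 2 it was 5, without KO replicate 1 it was 9 and without KO replicate 2 it was 6. The share of all genes was not computed for these smaller sets, where 1 library on a side separates more easily. The WT library left for the count of 10 was the one with the shortest list.

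H3K27me3 in HSPCs was wider in KO at 2 members, Lhx8 and Isl1 (17.7% of all genes), and narrower at 3, Lhx2, Lhx6 and Isl2 (20.8%). Lhx2 went from 118.1 ± 0.139 to 79.7 ± 30.4 kb, and its upstream edge from 29.6 kb to 8.49 and 8.35 kb. Joined across 3 kb, the directions of Lhx2, Lhx8 and Isl1 turned. Span coverage was higher at Lhx8 alone (19.2% of all genes) and lower at 0 members (23.7%), and most spans were wholly covered.

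The surroundings of Isl1 changed in KO mES cells more than the gene did. Within 5 Mb on each side, leaving out 100 kb around the gene and ending at the chromosome end, H2AK119ub peaks covered 1288 and 1237 kb in WT and 389 and 353 kb in KO, a log2 change of -1.77. H3K27me3 there covered 697 and 907 kb in WT and 439 and 277 kb in KO, a log2 change of -1.16. At the other 9 members the flanks changed by -0.10 to 0.04 for H2AK119ub and by -0.29 to -0.13 for H3K27me3. Isl1 itself was covered by H2AK119ub over 52.9% and 55.3% of its span in WT and 63.1% and 58.0% in KO. Within 25 kb of its start the bases called in both libraries came to 11.7 kb in each genotype for H2AK119ub, and to 27.3 kb in WT and 25.9 kb in KO for H3K27me3. In HSPCs the Isl1 flanks overlapped between genotypes for both marks, at 261 to 334 kb of H2AK119ub and 254 to 278 kb of H3K27me3. The cause of the regional difference in mES cells was not tested.

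In K562 cells H2AK119ub was present at some members and not others. A peak at the start in all 4 libraries was called for 4 of 10 orthologues, LHX5, LHX3, LHX4 and LHX6, against 25.4% of all genes. LHX1 (hg38 chr17:36936785-36944612), ISL1 (chr5:51383448-51394730) and ISL2 (chr15:76336773-76342475) had no peak on their span in any library, and LHX8 (chr1:75128434-75161533) none at its start. LHX5 (chr12:113462033-113472280) had the widest siControl domain, 12.1 and 11.9 kb, and 13.9 kb in both siMBD6 libraries. After siMBD6 the domain was wider at 4 of the 6 orthologues with one, LHX5, LHX2, LHX9 and LHX3, where 33.7% of all genes were, and narrower at 0, where 3.04% were. LHX3 (chr9:136196250-136205128) went from 5.73 and 6.85 kb to 10.1 and 15.2 kb, a direction that turned with peaks joined across 3 kb.

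Span coverage in K562 cells was higher after siMBD6 at 6 of 7 orthologues with any peak, against 53% of all genes, and lower at 0, against 1.95%. LHX2 (chr9:124001670-124033301) went from 46.1% and 43.5% to 61.8% and 63.6%, LHX5 from 69.8% and 73.7% to 84.5% and 88.4%, and LHX6 (chr9:122202577-122229626) from 35.7% and 28.1% to 48.9% and 44%. LHX9 had 18.6% and 9.23% before and 25.5% and 27.3% after, LHX4 62.9% and 63.7% before and 69.0% and 71.2% after, and LHX8 3.56% and 2.51% before and 9.91% and 9.59% after. Only LHX3 overlapped among the 7, at 63.4% and 73.6% against 72.3% and 79.9%. The members' median difference was 12.5 percentage points and that of all genes 3.37. The 5-Mb flanks were also higher around all 10 orthologues, by 0.22 to 1.71 on the log2 scale, those of the unmarked ISL1 included, from 43.8 and 44.3 kb to 81.9 and 83.4 kb. The 1.71 belongs to LHX8, whose flanks held little, 4.36 and 2.77 kb before and 11.9 and 11.4 kb after. Flanks of other genes were not measured. The siMBD6 lists were longer, 106964 and 110648 peaks against 91547 and 91614, and covered 177.5 and 190.2 Mb against 132.2 and 132.1 Mb. With 2 libraries a side the smallest p of the exact permutation test is 0.333.

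**Figure D5:**
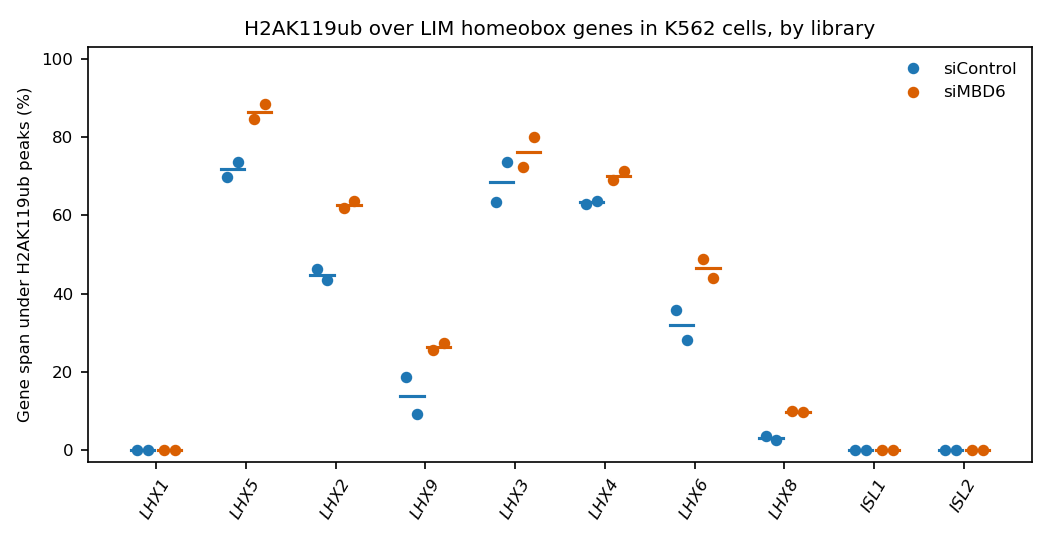
Percent of each gene span under H2AK119ub peaks in K562 cells (points, 1 per library; short lines, mean of 2), siControl in blue and siMBD6 in orange. LHX2 moves from 43.5% to 46.1% up to 61.8% to 63.6%, and LHX1, ISL1 and ISL2 stay at 0%.

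Other annotated starts lay inside the domains, counting only the part of a domain shared by both libraries of a group. The lincRNA Lhx1os starts at -125 bp from the start of Lhx1 (negative is upstream) on the other strand and AI606473 at -162 bp from that of Lhx8, and both lay inside the domain of either mark in every mouse group. So did the antisense genes Gm27199 at Lhx5, Gm27196 at Lhx3 and Gm17226 at Isl2, 68, 1587 and 2216 bp downstream of the start. Aatf, a coding gene for an apoptosis and transcription factor, starts 12.0 kb downstream of the Lhx1 start. That position lay in the shared H3K27me3 domain in all 4 mouse groups and in none for H2AK119ub. In mES KO replicate 2 alone, the H2AK119ub domain of Lhx1 reached past it. Peaks carry no strand, so a domain over such a pair cannot be assigned to one gene.

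Related genes and cofactors were measured beside the family. Among the remaining LIM homeobox genes, Lmx1b had about the same domain under both marks in mES cells (97.2 ± 0.387 and 97.8 ± 0.745 kb, SD, n = 4), whereas in HSPCs H3K27me3 spanned 110.3 kb and H2AK119ub 25.7 kb on average. Lmx1a was narrower, 10.0 and 11.6 kb in mES cells. Mnx1, a motor neuron factor, was like most members in having H2AK119ub narrower than H3K27me3 in both cell types and H3K27me3 wider in HSPCs. The LIM-only genes have LIM domains and no homeodomain. In HSPCs Lmo1 had H3K27me3 domains of 12.5 to 16.1 kb, while Lmo2, a haematopoietic regulator, Lmo3 and Lmo4 had no H3K27me3 at the start in any library. Among cofactors, Ldb1 had no H3K27me3 at the start in mES cells, and Ssbp4 had H2AK119ub of 8.18 to 34.4 kb in mES and 33.0 to 40.3 kb in HSPC libraries, with H3K27me3 of at most 3.36 kb. Between cell types H3K27me3 was wider in HSPCs at both other LIM homeobox genes, at 0 of 4 LIM-only genes, where 2 were narrower, and at 2 of 5 cofactors with a domain, where 0 were narrower. Over all genes 34.6% were wider and 16% narrower. In HSPCs H2AK119ub was narrower than H3K27me3 at both other LIM homeobox genes and wider at 1 of 3 LIM-only genes and 4 of 6 cofactors, 1 cofactor being narrower. Here 18.7% of all genes were narrower and 36.6% wider. In KO HSPCs H2AK119ub was wider at 1 of 2 other LIM homeobox genes, 1 of 3 LIM-only genes and 1 of 6 cofactors, and narrower at 0. The shares of all genes were 26.1% and 10.3%. In KO mES cells H3K27me3 was narrower at 3 of 4 LIM-only genes, 1 of 3 cofactors and 0 of 2 other LIM homeobox genes, and wider at 0. Among all genes 41.7% were narrower and 4.67% wider.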

How the data were processed

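CUT&Tag peak lists of 20 libraries in 10 groups were used as deposited. Per the study's methods, the authors aligned reads to mm10 or hg38 with Drosophila spike-in, removed duplicates with Picard and describe broad peaks from MACS2. The submitters' processing notes name Trimmomatic 0.39, Bowtie2 2.4.1 and HOMER 4.9. Which of MACS2 and HOMER made the deposited lists is not settled by these sources. The deposited values are peak positions, with other columns empty of score, count or p-value, so the spike-in scaling does not enter them and read depth is unknown. The order of peaks within a list, used for equal-length lists, is not explained in the sources used here.

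Groups and replicate numbers came from the labels. Peaks on assembled chromosomes were intersected with GENCODE M21 (mouse) and 44 (human) protein-coding genes (Python 3.11.15; numpy 2.4.6; pandas 2.3.3; matplotlib 3.10.9). No peak ran beyond a chromosome end of these builds (0 peaks). Measured per gene were the percent of the gene span and of 1 kb on each side of the start (5′ end of the gene) under peaks, and the width of the domain, that is peaks joined across gaps of up to 1 kb that touch that window, 0 where there was none. Changes in width are log2 ratios of group means plus 1 kb, and other changes are percentage points. A difference was counted where the libraries of the groups did not overlap, and the same was counted over all genes with a value above 0 in any library. Exact two-sided permutation tests over 6 or 70 assignments were adjusted by the Benjamini-Hochberg method over all genes. The members and lists, and the named genes (members, genes starting in their domains, fixed lists of relatives, cofactors, partners and cell type markers), were chosen with earlier results of these data known. Some genes of the partner and marker lists are not reported here. The steps were tested on simulated lists. The alternatives were peaks of at least 1 kb, equal-length lists, other joining, other starts, 2 kb on each side, WT only, leaving out each library and a replicate block.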

Additional observations from a re-analysis of the deposited data

Results flagged for a closer look

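KO minus WT differences that ran in opposite directions in mES cells and HSPCs, without overlap of libraries in either, were found for H2AK119ub at 2 members. At Lhx5 the domain differed by -5.71 kb in mES cells and 10.2 kb in HSPCs, a difference between effects of 15.9 kb. Span coverage of Lhx5 differed by -0.34 percentage points in mES cells and 15.5 points in HSPCs, a difference of 15.8 points. At Lhx4 span coverage differed by -3.13 points in mES cells and 14.6 points in HSPCs, a difference of 17.7 points. Each gave p = 0.0556 in the exact permutation test over 36 arrangements within cell type, the smallest this design allows, with n = 2 per group, so none could pass 0.05. The mES parts are small for span coverage, and the mES domain width of Lhx5 rested on WT replicate 2 (33.4 kb against 22.4 kb in replicate 1 and 22.1 and 22.3 kb in KO). In all, 40 such differences were computed.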

How the results depend on the processing

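The values here are the family's median, domain widths as log2 changes and coverage in percentage points. With peaks of at least 1 kb the KO change in domain width went from 0.29 to 0.24 (mES H2AK119ub), from -0.31 to -0.19 (mES H3K27me3) and from -0.05 to 0.043 (HSPC H3K27me3), and the siMBD6 change from 0.93 to 1.14. In mES H2AK119ub, Lhx3 turned to 0.31 and Lhx6 to -0.072. With principal transcript starts the widths were 0.20 for the mES H2AK119ub KO change, 0.62 for siMBD6 and -0.62 for the marks in mES cells, and Lhx2 turned to -0.029. Promoter coverage then went from 19.5 to 3.02 (HSPC H2AK119ub KO), from 21.9 to 8.72 (siMBD6) and from -14.8 to -1.51 (H2AK119ub between cell types, and between marks in HSPCs). A domain touching the gene span gave 0.20, -0.62 and, for Lhx2, -0.029. With 2 kb on each side of the start, promoter coverage gave 5.24 (mES H2AK119ub KO, 0 at 1 kb), 11.9 (HSPC H2AK119ub KO) and -2.62 (marks in mES cells, 0 at 1 kb).

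Without joining, the widths were 0.21 (mES H2AK119ub KO), -0.090 (mES H3K27me3 KO), 0.061 (HSPC H3K27me3 KO), -0.69 against -0.16 (H2AK119ub, HSPC against mES) and -2.15 against -1.53 (marks in HSPCs). KO directions turned at Lhx5 (0.16), Lhx6 (-0.16) and Lhx8 (-0.25) for mES H2AK119ub, Lhx3 (0.12) for mES H3K27me3 and Lhx9 (-0.036) for HSPC H2AK119ub. Joined across 3 kb, the widths were -0.17 (mES H3K27me3 KO), 1.91 (siMBD6), 0.26 against 0.57 (H3K27me3, HSPC against mES), -0.12 against -0.80 (marks in mES cells) and -0.74 (marks in HSPCs). Directions turned at Lhx5 (0.062) and Lhx6 (-0.17) for the mES H2AK119ub KO change, Lhx3 (0.0031) for mES H3K27me3, Lhx2 (0.011), Lhx8 (-0.051) and Isl1 (-0.0056) for HSPC H3K27me3, LHX3 (-0.78) for siMBD6, Isl1 (-0.18) for H3K27me3 between cell types, and Lhx5 (0.27) and Lhx6 (0.32) for the marks in mES cells.

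In WT libraries alone the marks differed by -1.10 in mES and -1.89 in HSPC domain width and by -24.3 points in HSPC span coverage (-18.3 with KO). H2AK119ub between cell types differed by -11.1 points of span coverage (-4.20 with KO), and promoter coverage by -24.6 in that comparison and between the marks in HSPCs (-14.8 with KO). Leaving out 1 library at a time gave 0.24 to 0.34 (mES H2AK119ub KO), 0.30 to 0.98 (HSPC H2AK119ub KO) and 0.74 to 1.14 (siMBD6). Beyond these, 115 values under alternatives, those of the replicate block included, and 153 under left-out libraries moved by less than the replicate SD. A replicate block cannot change a difference of means in this balanced design (0.60 for HSPC H2AK119ub KO), so it is no check of the values, and its smallest p is 0.5. The labels do not say whether samples with the same number share more than that number. Their deviations over the 10 genes correlated at -0.45 to 0.27 across the 5 comparisons. With so few genes this cannot tell whether they shared a culture, an animal or a batch. The overlap of the marks with 1 library left out was added after the data were seen, and bases of 1 library are more than those called in both. The cause of these shifts was not tested. Without read counts, depth sets no interval here, and a gap between peaks may be a call that missed the caller's threshold.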
